A study of Homo sapiens with 8 samples.

Results

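The genes of the integrins, the laminins and type IV collagen were followed in 2 human lung cancer lines in which the receptor-like kinase PTK7 was knocked down. Members were all genes whose only symbol in the array annotation names an integrin alpha or beta chain, a laminin alpha, beta or gamma chain, or a chain of type IV collagen, with the brightest probe set kept for each gene. The rule gave 41 of the 18404 genes measured: 25 integrins, 10 laminins and 6 type IV collagens. The symbols chose the genes, and brightness entered only where a gene had several probe sets, which no member had. ITGA1 shares its probe set with another gene and was left out by the rule, and LAMA3 was not analysed here.

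NCI-H1299 and NCI-H2009, called H1299 and H2009 below, are established lines that the labels give as lung adenocarcinoma. Each was infected for 2 days with a lentivirus carrying a short hairpin RNA, kept in puromycin for 2 further days, and harvested at day 4. There were 4 groups of 2 arrays: H1299 with control hairpins, H1299 with PTK7 hairpins, and the same for H2009. The control hairpins, GFP and LUC, are named for green fluorescent protein and luciferase, and the PTK7 hairpins are called PTK7-1 and PTK7-2. All 4 hairpins were used in both lines with 1 array each, so every array, controls included, came from infected and puromycin-selected cells, and no uninfected cells were measured. The comparisons ask what PTK7 knockdown does in each line and how the lines differ. The labels do not state repeated cultures, and p-values therefore measure only the spread between these arrays. Because the 2 arrays of a group carry unlike hairpins, this spread mixes any effect of the single hairpin with technical variation. Where hairpins were compared with each other, a shift that a hairpin gave in both lines was fitted and left out of the spread.

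Integrins are cell surface receptors made of 1 alpha and 1 beta chain that bind matrix outside the cell and link it to actin or, for the pair of ITGA6 and ITGB4, to keratin filaments. Laminins are trimers of an alpha, a beta and a gamma chain, and with the network of type IV collagen they form the basement membrane on which epithelial cells sit. In the lung this sheet lies under the airway and alveolar epithelium, and carcinoma cells often change which of its receptors and chains they express.

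Values are on the log2 scale of RMA, a method that removes background, brings the arrays to 1 distribution and joins the probes of a probe set into 1 value. Probe sets differ in brightness, so levels were compared between arrays and never between genes. As a floor, the 95th percentile of 340 olfactory receptor genes, which lung cancer cells are not thought to express, was taken on each array and ran from 4.23 to 4.82. Its mean was 4.73 in H1299 and 4.35 in H2009, so a gene of equal value can be above it in H2009 alone. In all 8 arrays 19 members lay above it, in no array 10 did (COL4A3, COL4A4, COL4A6, ITGA8, ITGA10, ITGAE, ITGAL, ITGAX, LAMA1 and LAMB4), ITGAM was above it throughout H1299 only, and COL4A5, ITGA2B, ITGA9, ITGB6, ITGB7 and LAMA4 throughout H2009 only. The other 5 (COL4A1, ITGA11, ITGA7, ITGB3 and ITGB8) were above it in some arrays of a line. ITGA2B (line means 4.63 in H1299 and 4.55 in H2009) and ITGA9 (4.52 and 4.58) had similar values in both lines. Both cleared only the lower H2009 floor. PTK7 itself read 5.73 (GFP), 6.03 (LUC), 5.63 (PTK7-1) and 5.53 (PTK7-2) in H1299 and 6.64, 6.86, 5.63 and 5.94 in H2009, so the PTK7 hairpins left 81.0% and 51.4% of the control level on this scale. Its averaged difference of -0.63 ± 0.12 did not pass limma's test (adjusted p = 0.19). Of the 6 epithelial markers, KRT7, KRT8, KRT18 and KRT19 were above the floor in all arrays, whereas EPCAM and CDH1 were above it in every H2009 array and in no H1299 array. Of the markers of leukocytes, fibroblasts and endothelium, PTPRC, CD3E, LYZ, DCN, LUM, PECAM1, CDH5, VWF and TEK were not above it in any array, while CD68, COL1A1, COL1A2, COL3A1 and CLDN5 were above it in all 8, CD14 and PDGFRB in all H2009 arrays only, and KDR in 1 H1299 array. Line means in H1299 and H2009 were 4.35 and 4.48 for CD14, and 4.55 and 4.48 for PDGFRB. The floor differed more between the lines than these values did.

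Between the lines, some integrin and laminin genes differed by a wide margin, but members were called about as often as all genes. With H1299 minus H2009 averaged over the 4 hairpins, 16 of the 41 members (39%) passed limma's test at an adjusted p below 0.05, against 36.2% of all genes, a share close to that of the members. Of these, 12 (29.3%) were higher in H2009, where 16.6% of all genes were, and 4 (9.76%) were higher in H1299, where 19.6% of all genes were. Over all 41 members 15 differences were above 0 and 26 below, with a median of -0.06 log2, beside 0.03 over all genes. By family, 9 of the 25 integrins, 6 of the 10 laminins and 1 of the 6 type IV collagens passed. The epithelial marker list moved with this contrast: 5 of its 6 genes were called, all higher in H2009, and its mean log2 level ran from 6.22 to 6.79 in H1299 and from 11.2 to 11.3 in H2009. The part of that difference in the values of the members was not tested.

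**Figure D1:**
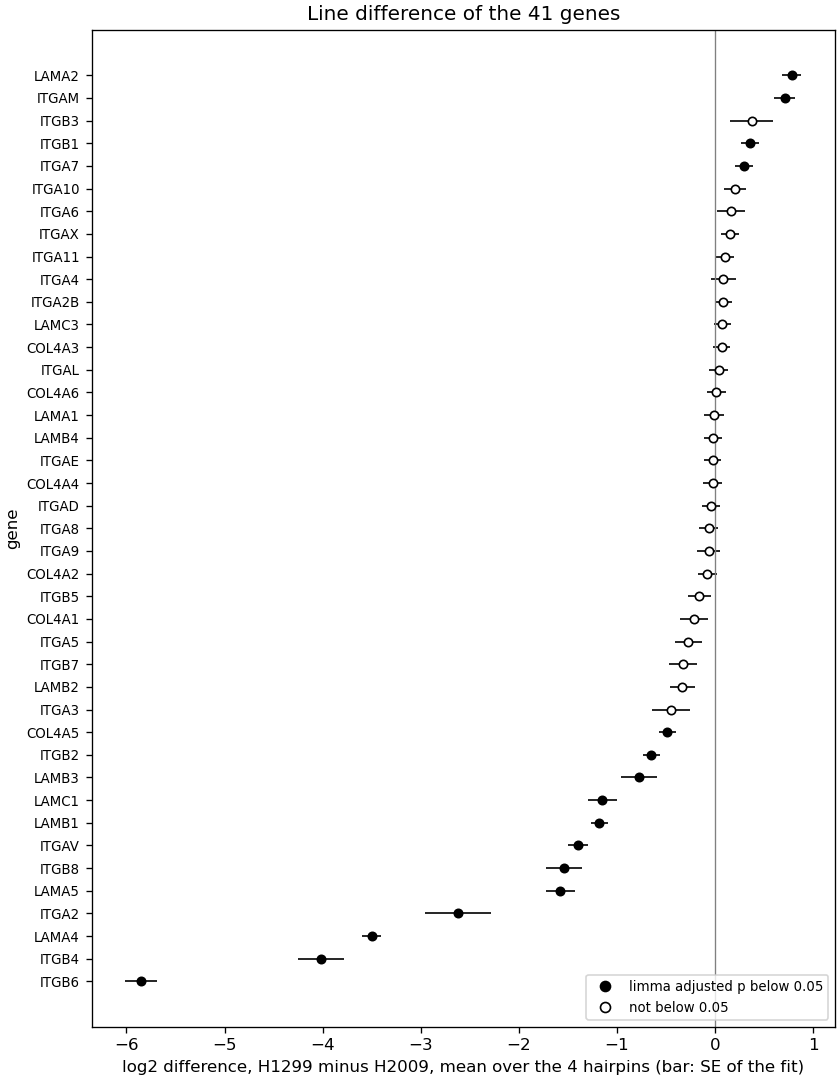
Log2 difference H1299 minus H2009 (x axis, mean over the 4 hairpins) of each of the 41 genes (y axis), with the standard error of the fit as a bar; filled points passed limma's test at an adjusted p below 0.05. The 12 filled points left of 0 reach -5.85 for ITGB6, while the 4 right of 0 reach 0.78 for LAMA2.

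Where a line was below the floor on every array, the fold is given as a lower bound, from the other line's mean to the floor of each array. Among the integrin beta chains, ITGB6, an epithelial chain that pairs only with ITGAV and binds fibronectin, tenascin and latent TGF-beta, read 4.35, 3.62, 3.81 and 3.71 in H1299 (GFP, LUC, PTK7-1, PTK7-2) and 9.74, 9.61, 9.68 and 9.85 in H2009. All H1299 arrays were below the floor and all H2009 arrays far above it. ITGB6 was at least 31.7-fold higher in H2009 (measured difference -5.85 ± 0.16, SE, limma adjusted p = 6.92e-07). Its partner ITGAV, which also serves ITGB5 and ITGB8, read 8.92, 9.08, 9.17 and 8.90 in H1299 and 10.47, 10.45, 10.48 and 10.25 in H2009. The arrays did not overlap, and ITGAV was 2.63-fold higher in H2009 (-1.40 ± 0.11, limma adjusted p = 7.55e-05).

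ITGB4, the hemidesmosome chain that pairs with ITGA6 and binds laminin, read 6.08, 5.47, 5.40 and 5.35 in H1299 and 9.84, 9.51, 9.02 and 9.99 in H2009. It was 16.2-fold higher in H2009 (-4.02 ± 0.24, limma adjusted p = 2.23e-05). Its partner ITGA6 did not follow: it read 11.22, 10.75, 10.59 and 10.86 in H1299 and 10.57, 10.49, 10.66 and 11.03 in H2009, so the lines overlapped. ITGB8, another partner of ITGAV, was at least 1.37-fold higher in H2009, with all its H1299 values and 1 of its H2009 values below the floor (measured difference -1.54 ± 0.18, limma adjusted p = 0.000601); with the PTK7 hairpins alone the difference was -0.81 (limma adjusted p = 0.0611). ITGB2, the beta chain of leukocyte integrins, was also higher in H2009, by 1.57-fold (-0.65 ± 0.08). ITGB1, which pairs with most matrix-binding alpha chains, went the other way. It read 10.12, 10.28, 10.58 and 10.41 in H1299 and 9.90, 9.92, 10.17 and 9.97 in H2009, and the lowest H1299 array lay below the highest H2009 array. It was 1.28-fold higher in H1299 (0.36 ± 0.09, limma adjusted p = 0.0226), a call that was lost when any of 5 arrays was left out (adjusted p from 0.0534 to 0.0846): the H1299 LUC and PTK7-1 arrays or the H2009 GFP, LUC and PTK7-2 arrays.

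Among the alpha chains, ITGA2, a collagen receptor chain that pairs with ITGB1, was 6.16-fold higher in H2009 (-2.62 ± 0.34, limma adjusted p = 0.000883). ITGAM, an alpha chain best known from myeloid cells, where it pairs with ITGB2, read 5.07, 5.36, 4.93 and 4.90 in H1299 and 4.26, 4.42, 4.24 and 4.51 in H2009. These values are close to the floor, which 2 of the H2009 arrays did not exceed, and the lines did not overlap (0.71 ± 0.11, 1.63-fold higher in H1299, limma adjusted p = 0.00208). ITGB2 read 4.94, 5.10, 5.27 and 5.22 in H1299 and 5.60, 5.66, 5.89 and 5.97 in H2009, so this pair of genes differed in opposite directions. ITGA7, a laminin receptor chain of muscle, was called higher in H1299 (0.30 ± 0.09, limma adjusted p = 0.038) with 3 of 4 H1299 arrays and 2 of 4 H2009 arrays below the floor, whose own mean was 4.73 in H1299 and 4.35 in H2009. This call was lost without any of 6 arrays, the exceptions being the H1299 PTK7-1 and the H2009 PTK7-2 array, with adjusted p from 0.084 to 0.136. ITGA3, a laminin receptor chain, did not pass (-0.45 ± 0.19, limma adjusted p = 0.121), but passed with the hairpin as a block (0.0258) and without the H1299 GFP array (-0.67, adjusted p = 0.00908). In that blocked fit 17 members were called, beside 42.2% of all genes. The other integrin chains, among them ITGA4, ITGA5 and ITGB5, did not pass either, with differences up to 0.37 for ITGB3. ITGB3, the beta chain of a vitronectin receptor and of platelets, was chosen after its values were seen: it read 5.51 on the H1299 GFP array and from 4.30 to 4.53 on the others.

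**Figure D2:**
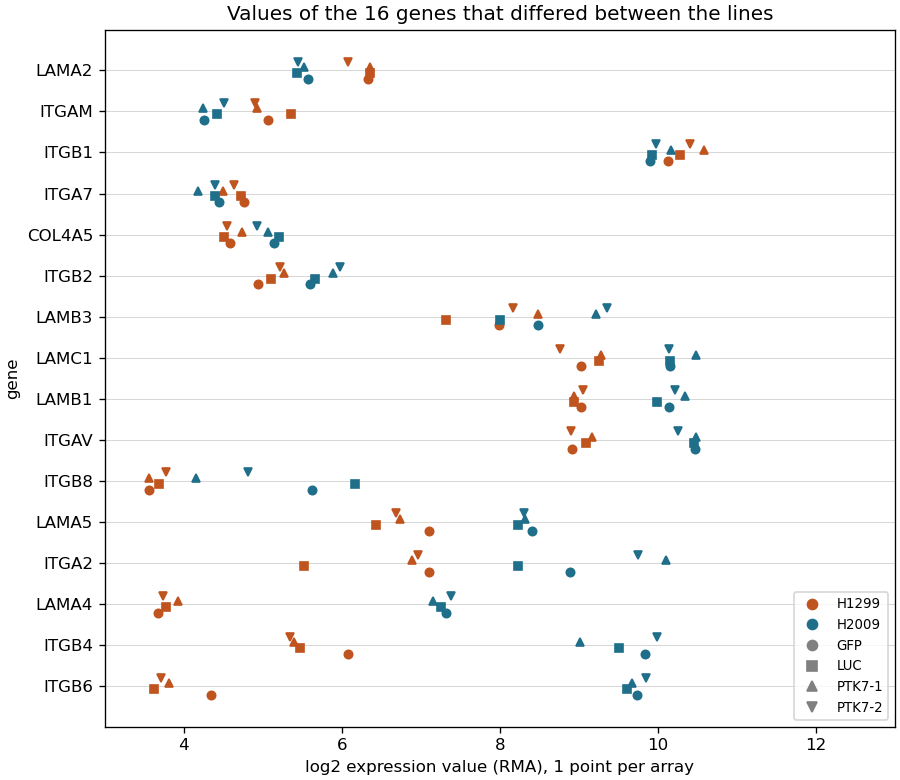
Log2 expression value (x axis, RMA) on each of the 8 arrays for the 16 genes called between the lines (y axis), with colour for the line and marker shape for the hairpin. The lines are far apart for ITGB6, ITGB4 and LAMA4, and close for ITGB1, ITGA7 and LAMB3, where arrays of the lines overlap or nearly meet.

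Of the laminin chains, LAMA4, the alpha chain of laminins of blood vessels and other mesenchymal basement membranes, differed most. It read 3.67, 3.77, 3.92 and 3.73 in H1299, below the floor on every array, and 7.32, 7.25, 7.16 and 7.38 in H2009. It was at least 5.83-fold higher in H2009 (measured difference -3.50 ± 0.10, limma adjusted p = 6.25e-07). Its partners in a trimer, LAMB1 and LAMC1, were higher in H2009 too. LAMB1 read 9.03, 8.94, 8.94 and 9.06 in H1299 and 10.15, 9.99, 10.34 and 10.21 in H2009 (2.26-fold, -1.18 ± 0.09, limma adjusted p = 7.2e-05). LAMC1, the gamma chain of most laminins, read 9.03, 9.26, 9.29 and 8.75 in H1299 and 10.15, 10.16, 10.48 and 10.14 in H2009 (2.22-fold, -1.15 ± 0.15, limma adjusted p = 0.000839). For both genes the lowest H2009 array was above the highest H1299 array.

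LAMA5, the alpha chain of most adult epithelial basement membranes, was 2.98-fold higher in H2009 (-1.58 ± 0.15, limma adjusted p = 0.000215). LAMA2, the alpha chain of muscle and nerve basement membranes, was higher in H1299: it read 6.33, 6.36, 6.35 and 6.07 there and 5.57, 5.43, 5.53 and 5.45 in H2009 (0.78 ± 0.10, 1.72-fold, limma adjusted p = 0.000734). LAMB2, which can take the place of LAMB1 in a trimer, read 7.41, 7.01, 7.72 and 7.68 in H1299 and 7.69, 7.87, 7.65 and 7.94 in H2009, and the lines overlapped. LAMB3 was 1.71-fold higher in H2009 (-0.77 ± 0.18, limma adjusted p = 0.0142). That call was lost with the control hairpins alone (-0.59, adjusted p = 0.157) and without the H2009 GFP array (-0.66, adjusted p = 0.057). LAMA1, LAMB4 and LAMC3 were not called, with LAMA1 and LAMB4 below the floor on every array.

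Of the type IV collagens, COL4A2 was above the floor on every array and COL4A5 on every H2009 array. COL4A3, COL4A4 and COL4A6 were above it on no array. COL4A5, a chain of the minor networks found in kidney, lung and skin, was the only 1 of the 6 that passed, at least 1.28-fold higher in H2009, with all 4 H1299 values below the floor (measured difference -0.49 ± 0.09, limma adjusted p = 0.00448; with the PTK7 hairpins alone -0.35, adjusted p = 0.0889). It read 4.59, 4.51, 4.74 and 4.55 in H1299 and 5.14, 5.21, 5.06 and 4.93 in H2009. Its partner in 1 of these networks, COL4A6, stayed between 3.84 and 4.08 on all 8 arrays. COL4A1 and COL4A2, the chains of the common network, lay between 4.01 and 4.89 and between 4.76 and 5.11, with the highest array of both being PTK7-2 in H2009. These genes lie head to head in pairs. In RefSeq's GRCh38.p14 the promoter windows on opposite strands share 226 bases for COL4A1 and COL4A2 on chromosome 13, 82 for COL4A3 and COL4A4 on chromosome 2 and 121 for COL4A5 and COL4A6 on chromosome X.

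Windows from 250 bases before to 50 bases after the RefSeq transcription start (300 bases, GRCh38.p14) were found for 30 of the 41 members, 38 windows in all, and were searched on both strands for the letters TGANTCA (AP-1), GGGCGG (GC box) and GGAATG (TEAD), none of which contains another. The windows of ITGB6 and LAMA4, the members below the floor throughout H1299 and with the clearest difference in H2009, are shown 5′ to 3′ on the minus strand and hold none of the 3 motifs, so no letters are in capitals.
ITGB6, chr2:160200223-160200522: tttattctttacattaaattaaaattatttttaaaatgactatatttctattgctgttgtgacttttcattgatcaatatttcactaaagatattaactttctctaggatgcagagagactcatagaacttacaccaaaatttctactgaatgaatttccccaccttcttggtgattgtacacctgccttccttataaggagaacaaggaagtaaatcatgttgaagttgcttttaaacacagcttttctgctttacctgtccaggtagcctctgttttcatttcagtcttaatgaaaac
LAMA4, chr6:112254518-112254817: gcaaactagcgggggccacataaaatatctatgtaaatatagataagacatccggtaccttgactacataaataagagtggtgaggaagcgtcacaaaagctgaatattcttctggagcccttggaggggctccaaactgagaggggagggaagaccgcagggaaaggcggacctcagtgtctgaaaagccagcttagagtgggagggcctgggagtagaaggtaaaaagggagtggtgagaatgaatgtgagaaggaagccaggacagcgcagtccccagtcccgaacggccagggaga

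The adhesion genes around these receptors also differed between the lines. Of 24 integrin adaptors and focal adhesion proteins, 8 were higher in H1299 and 5 higher in H2009. The adaptor TNS4 (-4.28 ± 0.27) and its relative TNS3 (-3.33 ± 0.16) were the largest in H2009, and TLN2 (1.35 ± 0.09), a talin that activates integrins, and the actin crosslinker ACTN1 (0.85 ± 0.11) were the largest in H1299. Of 20 other matrix ligands, 8 were higher in H2009, led by tenascin TNC (-4.69 ± 0.46) and EFEMP1 (-3.48 ± 0.14), and 2 in H1299, PXDN (3.03 ± 0.15), the peroxidase that crosslinks type IV collagen, and LTBP1 (1.11 ± 0.26). Of 7 hemidesmosome and laminin receptor partners, 4 were higher in H2009, led by SDC1 (-1.40 ± 0.12) and the tetraspanin CD9 (-0.88 ± 0.13), and 1 in H1299, the tetraspanin CD151 (0.52 ± 0.10), a partner of laminin-binding integrins. Of 10 collagen-modifying enzymes and chaperones, 6 were higher in H2009, led by lysyl oxidase LOX (-1.30 ± 0.15) and the prolyl hydroxylase P4HA2 (-1.27 ± 0.25), and 2 in H1299, LOXL2 (0.90 ± 0.16) and PLOD3 (0.57 ± 0.08). These counts stand beside the 36.2% of all genes called.

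With PTK7 knocked down, no integrin, laminin or type IV collagen gene passed limma's test averaged over the lines, in H1299, in H2009, or in the comparison of the lines' responses. The lowest adjusted p of a member was 0.19 in the averaged contrast, where 0% of all genes were called and the lowest adjusted p of any gene was 0.0589. At an unadjusted p below 0.05, limma counted 8 of the 41 members and 1819 of the 18404 genes. In H1299 0.00543% of all genes were called, in H2009 0%, and between the responses 0%. The averaged difference was above 0 for 28 of the 41 members (68.3%, beside 55.8% of all genes), with a median of 0.05 log2 beside 0.02. In H2009 29 members were above 0 (70.7%, beside 56.1% of all genes), with a median of 0.12 beside 0.03. In H1299 23 were (56.1%, beside 49.4% of all genes), with a median of 0.03 beside -0.003. By family, the averaged difference was above 0 for 16 of the 25 integrins (median 0.02), 7 of the 10 laminins (median 0.07) and 5 of the 6 type IV collagens (median 0.09, from -0.04 to 0.23). The contrast of each line uses arrays of the averaged one, so these counts are not independent.

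The 4 members with the smallest unadjusted p were ITGB5, LAMB3, ITGB8 and ITGA5, given here as values. LAMB3 is a beta chain of epithelial laminin, which anchors epithelium through hemidesmosomes. In H1299 it read 7.99 (GFP), 7.31 (LUC), 8.48 (PTK7-1) and 8.17 (PTK7-2), and in H2009 8.48, 8.00, 9.22 and 9.35. In each line both PTK7 arrays were above both control arrays and LUC was the lowest. The averaged difference was 0.86 ± 0.18 (1.81-fold, 0.67 in H1299 and 1.04 in H2009, limma adjusted p = 0.202). With the hairpin as a block, a fit whose error leaves out effects of a hairpin seen in both lines and that holds for these 4 hairpins alone, LAMB3 passed (adjusted p = 0.0447) as 1 member of 41, beside 0.228% of all genes that passed with a higher value. Without the H1299 LUC array its averaged difference was 0.69 (limma adjusted p = 0.39).

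ITGB5 pairs with ITGAV as a receptor for vitronectin. It read 9.03, 8.71, 9.44 and 9.55 in H1299 and 9.23, 8.93, 9.59 and 9.62 in H2009. Both PTK7 arrays were above both controls in each line. The averaged difference was 0.58 ± 0.11 (1.49-fold, limma adjusted p = 0.19, 0.051 with the block). Its partner ITGAV, listed above, had an averaged difference of -0.03 ± 0.11 (limma adjusted p = 0.955).

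ITGA5 pairs with ITGB1 to form the main receptor for fibronectin. It read 9.22, 9.16, 9.35 and 9.83 in H1299 and 9.43, 9.30, 9.79 and 10.13 in H2009. PTK7-2 was the highest array of both lines and PTK7-1 the next. The averaged difference was 0.50 ± 0.14 (1.41-fold, limma adjusted p = 0.292, 0.0691 with the block). ITGB1 had both PTK7 arrays above both controls in each line as well, with an averaged difference of 0.23 ± 0.09 (limma adjusted p = 0.494).

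ITGB8, which with ITGAV activates latent TGF-beta, had the most negative averaged difference of the members (-0.68 ± 0.18, limma adjusted p = 0.285). In H2009 it read 5.62 (GFP), 6.16 (LUC), 4.15 (PTK7-1) and 4.81 (PTK7-2), so the PTK7 arrays did not overlap the controls, and the PTK7-1 array was below its floor. In H1299 it read 3.55, 3.68, 3.56 and 3.77, all below the floor. The difference was -1.41 ± 0.26 in H2009 (limma adjusted p = 0.245; -1.32 with PTK7-1 set at its floor) and 0.05 in H1299, where values below the floor leave no room to measure a fall. The comparison of the lines' responses did not pass (1.46 ± 0.37, limma adjusted p = 0.848, the lowest of any member). LAMB2 had the second smallest p in H1299, at 0.49 ± 0.18 (limma adjusted p = 0.587).

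**Figure D3:**
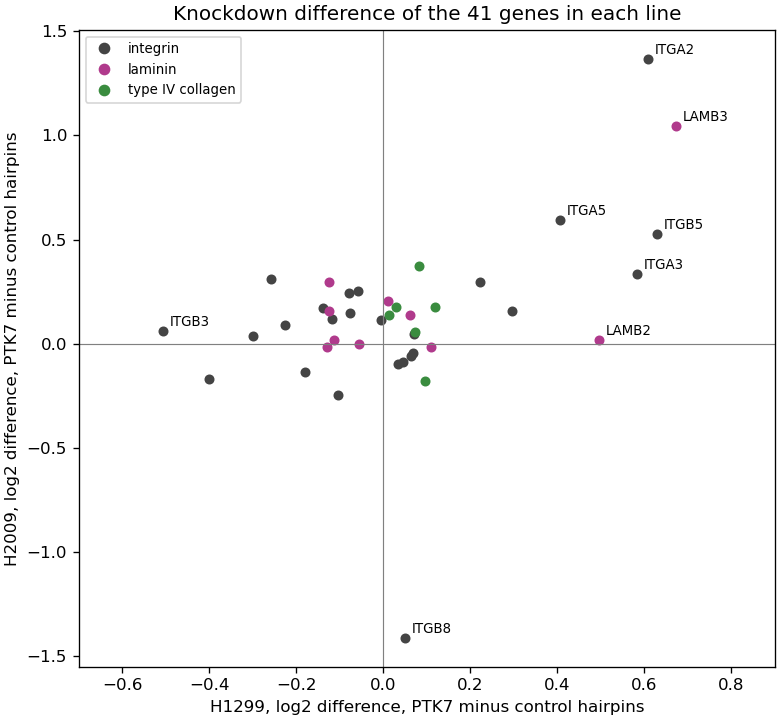
Knockdown difference (PTK7 hairpins minus control hairpins, log2) of the 41 genes in H1299 (x axis) and in H2009 (y axis), coloured by family. Most genes lie near 0 on both axes, LAMB3, ITGA2, ITGB5, ITGA5 and ITGA3 lie above 0 on both, and ITGB8 stands alone at -1.41 in H2009.

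Arrays were also counted without a model. In H1299 both PTK7 arrays lay above both controls for 8 members, beside 15.6% of all genes, and below them for 6, beside 16.1%. In H2009 they lay above for 16, beside 26%, and below for 3 (COL4A5, ITGA4 and ITGB8), beside 18.9%. In both lines at once they lay above for 7 members (17.1%), COL4A3, ITGA3, ITGA5, ITGB1, ITGB2, ITGB5 and LAMB3, beside 4.93% of all genes, and below for none, beside 4.53%. COL4A3 was below the floor on every array.

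The control hairpins were first compared with each other. GFP minus LUC averaged over the lines called 0 members and 0% of all genes. At an unadjusted p below 0.05, limma counted 5 of the 41 members and 672 of the 18404 genes, so members were also counted between the controls. The 5 values, none of which passed (limma adjusted p = 1), were 1.12 ± 0.30 for ITGA2, 0.58 ± 0.18 for ITGA3, 0.57 ± 0.18 for LAMB3, 0.42 ± 0.15 for LAMA5 and 0.31 ± 0.13 for ITGB5. ITGA2 and ITGA3 were chosen for their array values after these were seen. ITGA2 read 7.11 (GFP), 5.52 (LUC), 6.88 (PTK7-1) and 6.96 (PTK7-2) in H1299 and 8.89, 8.23, 10.10 and 9.75 in H2009. In H1299 the LUC array stood alone at the low end and GFP was above both PTK7 arrays, whereas in H2009 both PTK7 arrays were above both controls. ITGA3, which pairs with ITGB1 as a receptor for laminins, read 10.54, 9.65, 10.56 and 10.79 in H1299 and 10.81, 10.53, 10.98 and 11.03 in H2009. In H1299 its GFP array was level with PTK7-1, and LUC was again lowest. The H1299 LUC array was also the lowest of its line for the keratins KRT8 (8.68, the others 9.67 to 10.38) and KRT18 (10.56, the others 10.91 to 11.61). For KRT7 and KRT19 the lowest H1299 array was PTK7-1 (4.89 and 5.27), with LUC at 5.42 for both. The part of this in the differences from LUC was not tested.

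**Figure D4:**
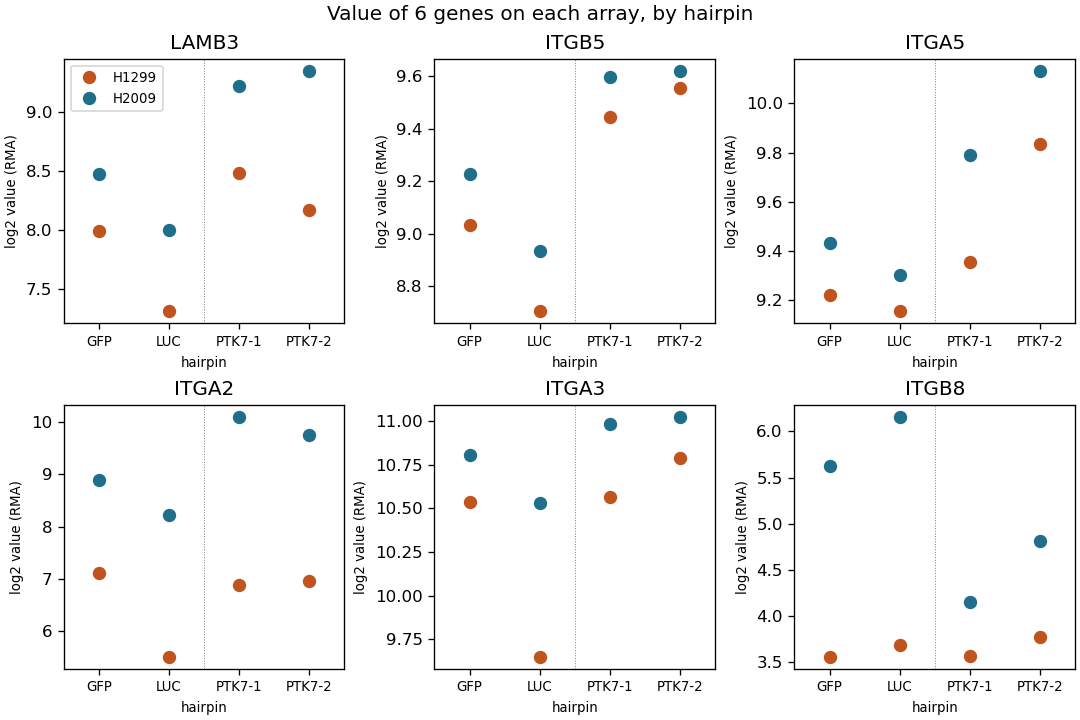
Log2 value (y axis, RMA; scales differ between panels and do not start at 0) of LAMB3, ITGB5, ITGA5, ITGA2, ITGA3 and ITGB8 by hairpin (x axis), 1 point per array, coloured by line; the dotted line parts control from PTK7 hairpins. LUC is the lowest point of the control pair for every gene but ITGB8, and PTK7 points lie above both controls in both lines for LAMB3, ITGB5, ITGA5 and ITGA3.

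Each PTK7 hairpin was then set against each control hairpin over both lines; these 4 contrasts share arrays. Against LUC, PTK7-1 called 1 member, LAMB3, beside 0.587% of all genes (0.147% in the higher direction). PTK7-2 called 2, LAMB3 and ITGB5, beside 1.18% (0.255% higher). Against GFP no member was called with PTK7-1, beside 0.56%, or with PTK7-2, beside 0.907%. LAMB3 rose by 1.19 ± 0.18 from LUC to PTK7-1 (2.29-fold, limma adjusted p = 0.0431) and by 1.10 ± 0.18 from LUC to PTK7-2 (0.0385). From GFP the same differences were 0.62 (0.226) and 0.53 (0.247). ITGB5 rose by 0.77 ± 0.13 from LUC to PTK7-2 (1.70-fold, limma adjusted p = 0.0407), and its PTK7-1 value was 0.70 (0.0721). From GFP ITGB5 differed by 0.39 with PTK7-1 (limma adjusted p = 0.28) and by 0.46 with PTK7-2 (0.169).

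These calls rest on few arrays and, for LAMB3, on the normalization: both LAMB3 calls were lost with quantile (limma adjusted p = 0.069 for PTK7-1 and 0.0652 for PTK7-2) and with cyclic loess normalization (0.0688 and 0.0645). LAMB3 against LUC was lost with PTK7-1 when any array was left out other than the PTK7-2 arrays (6 of 8, limma adjusted p from 0.0814 to 0.26), and with PTK7-2 when any of the 8 was left out (0.052 to 0.213). ITGB5 against LUC with PTK7-2 was lost without any array but the H2009 PTK7-2 array (0.0842 to 0.283). Without the H1299 LUC array the LAMB3 differences were 1.25 for PTK7-1 and 1.16 for PTK7-2, and that of ITGB5 was 0.72. The LUC level then rests on the H2009 LUC array alone, so these values do not show the difference from LUC in H1299. Within H2009 the single-array differences from LUC were 1.22 (PTK7-1) and 1.35 (PTK7-2) for LAMB3, and 0.69 (PTK7-2) for ITGB5.

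ITGA5 differed by 0.75 from LUC and 0.66 from GFP with PTK7-2 (limma adjusted p = 0.0514 and 0.0843), and by 0.34 and 0.25 with PTK7-1. Unlike the values of LAMB3, ITGA2 and ITGA3, its values hardly depended on the control hairpin (GFP minus LUC 0.10 ± 0.14). ITGA2 differed from LUC by 1.62 with PTK7-1 and 1.48 with PTK7-2 (limma adjusted p = 0.0728 and 0.0699), but from GFP by 0.49 and 0.36. Directly between the PTK7 hairpins no member was called, beside 3.73% of all genes. The nearest were ITGA5 (PTK7-1 minus PTK7-2 -0.41 ± 0.14, limma adjusted p = 0.154) and LAMC1 (0.43 ± 0.15, 0.179). For LAMB3 the PTK7 hairpins differed by 0.09, with a 95% interval from -0.32 to 0.51, and for ITGB5 by -0.07 (-0.36 to 0.23).

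**Figure D5:**
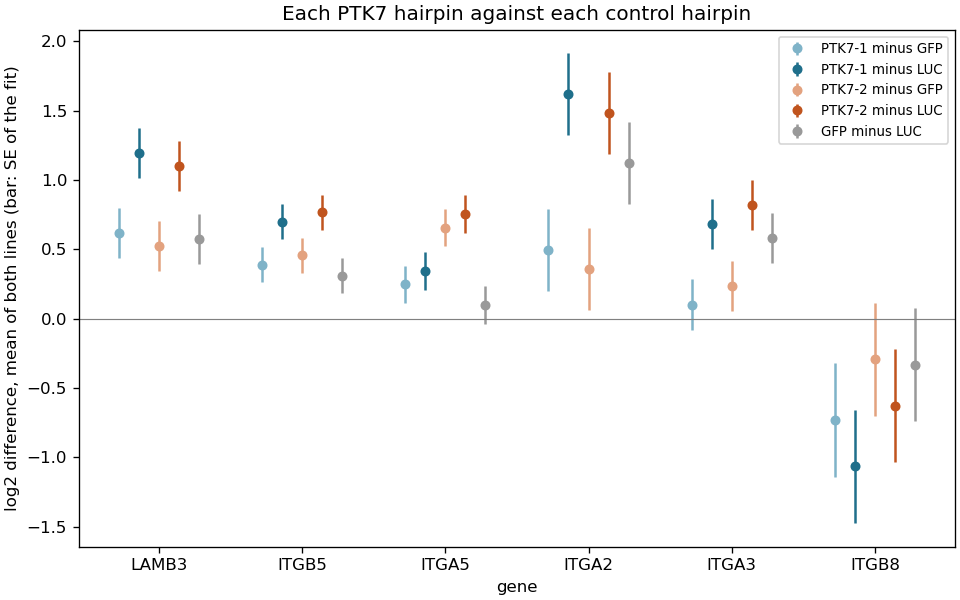
Log2 difference averaged over both lines (y axis; bars are the standard error of the fit) for each PTK7 hairpin against each control hairpin, and for GFP minus LUC in grey, in 6 genes (x axis). Differences from LUC exceed those from GFP for LAMB3, ITGB5, ITGA2 and ITGA3, and the 2 PTK7 hairpins give close values against the same control for LAMB3 and ITGB5.

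The promoter windows of LAMB3 and ITGA5, 2 of the genes with higher values under both PTK7 hairpins, are shown because they are the only members whose windows hold the AP-1 letters: 2 of the 38 member windows, beside 7.71% of all 35116 windows. The GC box was in 22 member windows (57.9%, beside 45%) and the TEAD letters in 4 (ITGA5, ITGA10, ITGB1 and LAMA2, beside 14%). Capitals mark a match on either strand, so CCGCCC is the GC box read from the other strand. All are on the minus strand, 5′ to 3′. LAMB3 has 3 windows, of which 2 that do not overlap are given.
LAMB3, first window, chr1:209652376-209652675: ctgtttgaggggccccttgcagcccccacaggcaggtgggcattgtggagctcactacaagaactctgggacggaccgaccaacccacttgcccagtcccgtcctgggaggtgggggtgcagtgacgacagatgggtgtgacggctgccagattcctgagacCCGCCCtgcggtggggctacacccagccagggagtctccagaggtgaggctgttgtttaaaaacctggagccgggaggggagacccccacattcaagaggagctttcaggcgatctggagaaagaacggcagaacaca
LAMB3, second window, chr1:209651325-209651624: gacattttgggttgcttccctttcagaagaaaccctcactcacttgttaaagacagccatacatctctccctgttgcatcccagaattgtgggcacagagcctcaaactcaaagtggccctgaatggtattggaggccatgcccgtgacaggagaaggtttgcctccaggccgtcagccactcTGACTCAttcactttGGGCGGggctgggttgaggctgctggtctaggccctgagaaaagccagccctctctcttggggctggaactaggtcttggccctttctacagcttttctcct
ITGA5, chr12:54419217-54419516: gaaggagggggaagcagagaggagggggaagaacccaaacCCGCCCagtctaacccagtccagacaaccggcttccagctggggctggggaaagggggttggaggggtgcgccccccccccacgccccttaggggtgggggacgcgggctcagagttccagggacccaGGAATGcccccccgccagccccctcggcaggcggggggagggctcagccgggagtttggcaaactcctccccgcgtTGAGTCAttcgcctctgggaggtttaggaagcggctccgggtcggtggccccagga
The second LAMB3 window and that of ITGA5 hold 1 AP-1 match each, and ITGA5 1 TEAD match. Which start site these cells use was not measured, and a match describes the letters only.

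In the wider adhesion lists no gene passed the averaged, H1299 or H2009 knockdown test either. The values with the smallest p in the averaged contrast were FERMT2, a kindlin that activates integrins (0.74 ± 0.26, limma adjusted p = 0.399), TLN2 (-0.22 ± 0.09), EFEMP1 (0.56 ± 0.14, 0.264), the matrix protein THBS1 (1.04 ± 0.30, 0.321), LOXL2 (0.56 ± 0.16, 0.313), PLOD3 (0.22 ± 0.08), SDC1 (0.29 ± 0.12) and CD151 (0.21 ± 0.10). Between the PTK7 hairpins, 3 of 24 adaptors and 2 of 10 collagen-modifying genes passed, beside 3.73% of all genes. LIMS1 was higher with PTK7-1 (0.96 ± 0.13, limma adjusted p = 0.0115), and ILK, its partner in a complex that binds integrin tails, was higher with PTK7-2 (-0.94 ± 0.13, 0.0136), as was ITGB1BP1, which binds the tail of ITGB1 (-0.68 ± 0.14, 0.0458). The collagen-modifying genes that passed were SERPINH1, the collagen chaperone, and P4HA2. SERPINH1 read 9.21, 8.67, 9.45 and 7.44 in H1299 and 9.08, 9.02, 9.09 and 6.99 in H2009, so PTK7-2 stood alone at the low end of both lines. It fell by 1.93 from GFP and by 1.63 from LUC with PTK7-2 (limma adjusted p = 0.0155 and 0.0216). P4HA2 was higher with PTK7-2 (-0.89 ± 0.14, 0.0209).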

How the data were processed

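Total RNA of 8 samples was hybridised to 8 Affymetrix arrays. Per the submitters' processing notes, the authors used RMA and R 2.14.0, and what they deposited is a log2 value for each probe set. The array files' genome build is not given in the sources used here. Of 32321 probe sets, 19158 had 1 annotated symbol, 1388 several and 11775 none listed; keeping the brightest per gene left 18404 genes.

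limma 3.58.1 (R 4.3.3) was fitted to all 8 arrays, with group means for knockdown and line and with hairpin plus line for hairpins, and p-values were adjusted over all genes (Benjamini-Hochberg, 0.05). Errors after ± are standard errors. Array medians were 5.31 to 5.41, and r within groups, across genes, 0.981 to 0.997; precision is limited by the number of arrays. The labels give the same hairpins in both lines, and same-hairpin arrays deviated together (r of 0.230 for control and 0.407 for PTK7 hairpins), so blocking on the hairpin was also tried, beside other normalizations, a filter on dim genes, other priors and left-out arrays. Array values are given for members called in a knockdown or hairpin contrast, those of smallest p there, the 3 largest line differences per direction and their chain partners. Values of COL4A5, LAMC3, ITGA2, ITGA3 and ITGB3 were added. Other members called between the lines, such as LAMA5 and ITGA7, are given by their difference. Of wider lists at most 2 genes per direction are named. Members and lists were chosen with earlier results of these data known. Scripts were tested on simulated data.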

Additional observations from a re-analysis of the deposited data

Results flagged for a closer look

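The arrays of LAMC3, a laminin gamma chain, were ordered in opposite ways in the lines, with no difference that passed a test. In H1299 it read 5.75 (GFP), 5.78 (LUC), 5.75 (PTK7-1) and 5.54 (PTK7-2), with both PTK7 arrays below both controls, and in H2009 5.46, 5.51, 5.77 and 5.79, with both above. The GFP and PTK7-1 values of H1299 are equal at this rounding. The PTK7 minus control difference of H1299 minus that of H2009 was -0.42 ± 0.17, and limma's test of it did not pass (adjusted p = 0.922).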

How the results depend on the processing

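The sign was checked for members called in a contrast, with or without the block, and for members of smallest p in the knockdown contrasts. None of these differences changed sign under any alternative run. Other differences given above, among them ITGA2 and ITGA3 by hairpin, GFP minus LUC, LAMC3 and the wider lists, were not checked in this way. In the averaged knockdown contrast the count of called members went from 0 to 1 (LAMB3) with a replicate block of the hairpin as a fixed term, and that of all genes from 0 to 149; with the hairpin as a random block it stayed at 0. Between the lines 16 members were called, and 10 without the dimmest 40% of genes, where 6 dim members left the test; leaving out an array gave 13 to 17. For PTK7-1 against LUC the count of 1 became 0 with quantile and with cyclic loess normalization, 2 without the dimmest genes and 3 with a trended prior, and 0 to 1 with an array left out. For PTK7-2 against LUC the count of 2 became 1 with quantile and with cyclic loess normalization, 4 without the dimmest genes and 5 with a trended prior, and 0 to 1 with an array left out. For PTK7-2 against GFP the count of 0 became 1 (ITGA5) with a trended prior. Over all genes the trended prior moved the calls of PTK7-1 from 103 to 201 (GFP) and from 108 to 207 (LUC), and of PTK7-2 from 167 to 262 and from 217 to 357; cyclic loess gave 41, 69, 95 and 162, and quantile normalization gave 47 for PTK7-1 against GFP. The cause was not tested. Of the values of the members checked between the lines, 313 of 334 kept their side of the threshold. The block changed the call of ITGA3 there and of LAMB3 in the averaged knockdown. Where an array left out leaves 1 in a group, that array is taken to vary like the other groups. Signal limits members near the floor.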
